A study of Mus musculus with 20 samples.

Results

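Of the 102373 accessible regions in a merged ATAC-seq peak list from mouse embryonic stem (ES) cells, 1838 (1.80%) were narrow peaks at the promoter of a gene on 1 strand. ATAC-seq marks open DNA by letting a transposase insert adapters into it. A peak was taken when a transcription start site (TSS) of a protein-coding transcript lay at most 1000 bp from it, when all such TSS were on the same strand, and when the peak was under 300 bp wide. These 1838 peaks made up 11.0% of the 16665 single-strand promoter peaks, and together they covered 386 kb on 20 chromosomes. Their widths ran from 135 to 299 bp, with a median of 203 bp and quartiles of 174 and 245 bp. The members were chosen by their measured width, so width is given as a description only.

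The study asked how the loss of OCT4 around mitosis changes chromatin accessibility through the cell cycle. All cells were of the ZHBTc4 line, in which the endogenous gene for OCT4, Pou5f1, is switched off by doxycycline (dox). OCT4 came instead from a lentiviral SNAP-MD-OCT4, whose mitotic degron (MD, from Cyclin B1) removes the protein when cells divide, or from SNAP-MD*-OCT4, whose degron is mutated. All cells also carried YPet-MD, used with a DNA stain to sort the phases. Both OCT4 constructs were driven by the PGK promoter at levels below those of wild-type cells, and each line was a sorted population of transduced cells. After 40 h of dox, cells with either construct were separated by phase (early G1, late G1, S or late S/G2), with 2 replicates in each of these 8 groups, and the peaks of those 16 libraries were merged into the list. The other 4 libraries, from unsorted cells without dox, did not enter it.

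The list holds coordinates only. Because it has no value per library, the depth behind a peak is unknown, no error between replicates can be stated, and neither constructs nor phases can be compared. A peak counts once whether it was called in 1 library or in all 16. The comparisons are between classes of peaks in that list. Ranges in brackets are 95% intervals, Wilson intervals for shares and order-statistic intervals for medians. Because the peaks of 1 list are not replicates, these ranges reflect counting error alone.

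Mammalian promoters fall broadly into those within CpG islands, which are rich in CG dinucleotides and typical of broadly expressed genes, and CpG-poor ones, which are typical of tissue-restricted genes. Around an active start, nucleosomes are depleted and the DNA is accessible to transcription factors. Many genes have several promoters, so a TSS inside a gene can be an alternative start of that gene.

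A few members are printed to show the range of sequences at these peaks. Each is the reference sequence of GRCm38 (RefSeq assembly), read 5′ to 3′ on the strand of the gene. The first pair shows a CG-poor and a CG-rich member, with every CG dinucleotide in capitals. The peak at Hnf4a, a transcription factor gene of endoderm and liver, spanned chr2:163506606-163506765 on the plus strand and held 0 CG dinucleotides. The peak at Klf2, a pluripotency factor gene, spanned chr8:72319800-72319968 on the plus strand, in a coding exon 767 bp downstream of the TSS, and held 27.
Hnf4a: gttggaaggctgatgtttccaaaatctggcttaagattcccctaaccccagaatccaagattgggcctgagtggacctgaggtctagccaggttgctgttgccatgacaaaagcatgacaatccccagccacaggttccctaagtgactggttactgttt
Klf2: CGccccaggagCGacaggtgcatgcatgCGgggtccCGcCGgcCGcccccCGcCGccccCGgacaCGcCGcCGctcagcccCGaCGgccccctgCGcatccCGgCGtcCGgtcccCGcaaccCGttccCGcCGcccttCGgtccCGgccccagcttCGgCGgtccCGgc

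Members with a motif match are shown next. The peak at Stra8, a gene needed for entry into meiosis, spanned chr6:34920074-34920224 on the plus strand and held the TSS. Capitals mark its GC box, the motif of SP factors. The peak at Esrrb, which encodes a nuclear receptor of the pluripotency network, spanned chr12:86470968-86471116 on the plus strand. It lay in an intron 851 bp downstream of an alternative TSS, over 1000 bp from the 5′ end of the gene, and capitals mark an E-box followed by the OCT motif on the minus strand. For Tnf and C2cd4a the stretch runs from the upstream edge of the peak to the base before the TSS, at chr17:35202005-35202109 for Tnf on the minus strand (the last bases lie in the annotated transcript of another start) and at chr9:67832331-67832457 for C2cd4a on the minus strand. Capitals there mark TATAAA, the core of the TATA box.
Stra8: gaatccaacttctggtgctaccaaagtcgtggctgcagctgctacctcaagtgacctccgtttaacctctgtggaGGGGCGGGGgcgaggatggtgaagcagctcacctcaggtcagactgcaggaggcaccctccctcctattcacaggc
Esrrb: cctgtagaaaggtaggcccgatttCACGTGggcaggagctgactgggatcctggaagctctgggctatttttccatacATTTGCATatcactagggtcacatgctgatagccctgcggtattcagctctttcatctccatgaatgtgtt
Tnf: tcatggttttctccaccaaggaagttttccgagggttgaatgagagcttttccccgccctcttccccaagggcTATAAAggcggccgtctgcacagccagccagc
C2cd4a: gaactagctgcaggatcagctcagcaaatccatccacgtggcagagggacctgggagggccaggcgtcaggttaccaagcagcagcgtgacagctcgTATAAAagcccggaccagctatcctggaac

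To ask where narrow peaks sit relative to transcription starts, each was placed against the nearest protein-coding TSS. Most did not hold one. A TSS lay inside 375 of the 1838 peaks (20.4%, 18.6 to 22.3, or 34.4% when only peaks at most 500 bp from a TSS were taken), while 638 (34.7%) lay upstream of the nearest TSS and 825 (44.9%) downstream. The median distance from the edge of the peak to the TSS was 457 bp for the upstream ones and 535 bp for the downstream ones. Broad single-strand promoter peaks (300 bp or more, n = 14827, median width 1018 bp) held a TSS in 84.9% of cases, and divergent promoter peaks, with protein-coding TSS on both strands (n = 1333), in 95.5%. The difference between narrow and broad was -64.5 percentage points (-66.4 to -62.5). A short peak covers fewer bases, so width alone lowers this share, and the centre of the peak was compared as well. A protein-coding TSS lay within 100 bp of the centre in 19.4% of narrow peaks (17.6 to 21.2), in 42.0% of broad and in 63.2% of divergent ones. The difference between narrow and broad by this measure was -22.6 points.

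**Figure D1:**
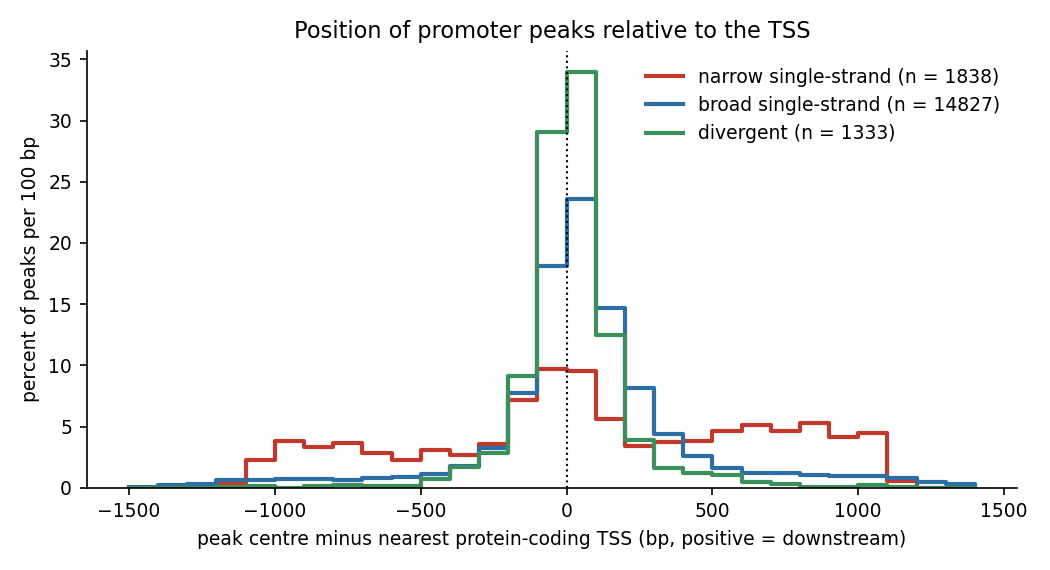
Position of the peak centre relative to the nearest protein-coding TSS, in bp along the direction of transcription, as the percent of each class per 100 bp. The narrow class (1838 peaks) reached 9.68% just upstream and 9.52% just downstream of the TSS and kept 2 to 6% in most steps out to 1000 bp, whereas the broad class (14827 peaks) was concentrated at the TSS, with 23.6% in the first 100 bp downstream.

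Counted across all positions, 42.8% of narrow peaks (786, 40.5 to 45.0) lay over 1000 bp from the annotated 5′ end of every gene they reached. The 5′ end was taken as the outermost protein-coding TSS of a gene, whether or not it is the start mainly used. These peaks thus had only an alternative start, meaning any other start, within 1000 bp, and 142 of them held a TSS. Their median distance to the nearest TSS was 350 bp, and whether they belong to that start was not tested. The share was 17.5% for broad peaks (difference 25.3 points, 23.0 to 27.7). By annotation, the centre of a narrow peak was in an intron in 51.0% of cases, between genes in 19.3%, in an untranslated exon in 13.1%, in a coding exon in 11.7% and in a non-coding exon in 5.01%. For broad peaks the intronic share was 26.4% and the share in untranslated exons 35.6%. Intronic centres were thus more frequent among narrow peaks by 24.6 points (22.2 to 27.0), and untranslated exons less frequent, by -22.5 points (-24.2 to -20.7).

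Narrow peaks commonly had company. Another listed peak lay within 1000 bp of 1029 of them (56.0%, 53.7 to 58.2), against 23.8% of broad promoter peaks, 18.8% of divergent ones and 24.2% of 32145 equally narrow peaks that were over 1000 bp from every annotated TSS (distal narrow peaks). The differences were 32.2, 37.2 and 31.8 points. By the rule every member lies within 1000 bp of a TSS, and 84.9% of broad peaks held a TSS. Distal narrow peaks were kept over 1000 bp from every TSS. These definitions alone favour a neighbour for members. How much of the differences, and of the low share of sole promoter peaks below, they set was not tested. The nearest neighbour was a broad single-strand promoter peak for 744 of the 1029 (72.3%) at a median gap of 221 bp, and another narrow member for 194 (18.9%) at a median gap of 177 bp. For 279 members (15.2%) the gap to the next peak was at most 100 bp. Neighbours were least frequent among members that held a TSS (35.2%) and most frequent among those downstream of one (64.6%). Only 395 members (21.5%, 19.7 to 23.4) were the sole promoter peak of their genes, compared with 63.2% of broad and 64.2% of divergent peaks, and the share was 32.7% with TSS at most 500 bp away.

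To ask whether narrow promoter peaks resemble other promoters in sequence, base composition was read in the 200 bp around the centre of every peak, the same length for all classes. This window reached past the edges of the 880 members (47.9%) under 200 bp wide and so took in flanking DNA there. In a window of 100 bp, which lay inside every member, the differences from broad peaks were -13.0 points in GC content and -0.463 in CpG ratio. The CpG ratio is the number of CG dinucleotides divided by the number that the C and G content of the window would give by chance. Narrow peaks were CpG-poor for promoters, yet not as poor as distal peaks of the same width. Their median CpG ratio was 0.333 (0.317 to 0.349), against 0.784 for broad, 0.848 for divergent and 0.194 for distal narrow peaks. The differences from these classes were -0.451, -0.515 and 0.140. Their median GC content was 53.0% (52.5 to 53.5), compared with 66.0% in broad, 64.0% in divergent and 47.5% in distal narrow peaks, differences of -13.0 points (-13.5 to -12.3), -11.0 points and 5.50 points. Windows with a CpG ratio above 0.6 and a GC content above 50%, called CpG-rich here, made up 304 of the 1838 (16.5%, 14.9 to 18.3). That share was 69.2% in the broad, 80.5% in the divergent and 2.30% in the distal narrow class.

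**Figure D2:**
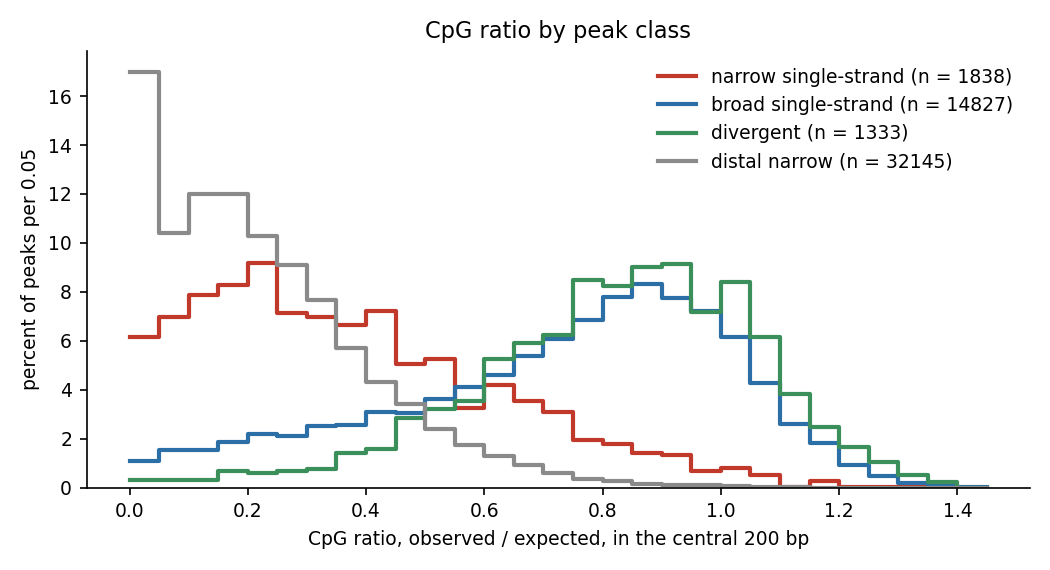
Distribution of the CpG ratio (observed over expected CG dinucleotides in the central 200 bp) in steps of 0.05, as the percent of each class of peaks. Narrow promoter peaks, with a median of 0.333, lie between the distal narrow peaks (0.194) and the broad (0.784) and divergent (0.848) promoter peaks, and have a tail above 0.6.

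The class was broad in itself. Its CpG ratio had quartiles of 0.174 and 0.533, and its GC content had quartiles of 47.5% and 59.0%. The GC content of single members ran from 23.5% at Zfp280d, in a non-coding exon 306 bp downstream of an alternative TSS, to 84.0% at Zfp618, in a coding exon 3 bp downstream of a TSS. The next highest were Epha8, an ephrin receptor gene (83.0%), Ptch1, the Hedgehog receptor gene (81.0%), Zfp362 (80.5%) and Bcl11b, a T-cell and neuronal transcription factor gene (79.5%, shared with Klf2 and Jph3). Zfp618, Epha8, Ptch1, Zfp362 and Bcl11b each had another listed peak within 1000 bp, at 39 bp for Epha8 and 806 bp for Bcl11b. After Zfp280d, the lowest were Tab2 (26.5%), Gnpnat1 and the olfactory receptor gene Olfr1153 (both 28.0%) and Olfr1283 (29.0%). The peaks at Olfr1153 and Olfr1283 were isolated, with the nearest listed peak 33980 and 148240 bp away. The 5 narrowest members, each 135 bp, were at Ankrd13b, Fam208a, Mapk13, Mllt10 and Tmod4, and only the last of them held a TSS. Their GC content spanned 36.0% at Mllt10 to 74.0% at Ankrd13b.

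Holding a TSS went with a somewhat more promoter-like sequence, although the gap to broad peaks remained. The 375 members with a TSS inside had a median GC content of 57.0% and a median CpG ratio of 0.401, and 24.3% were CpG-rich. Upstream members were the poorest, with 50.5%, 0.258 and 11.0% for the same measures, and downstream members had 53.0%, 0.364 and 17.3%. The median CpG ratio of TSS-holding members exceeded that of upstream ones by 0.143 (0.0985 to 0.181), whereas its difference from downstream ones, 0.0368, had an interval that included 0 (-0.0101 to 0.0775). Broad peaks that held a TSS had a median GC content of 67.0% and a CpG ratio of 0.819, and 76.0% of them were CpG-rich. Narrow TSS-holding peaks were thus 10.0 points lower in GC content (interval of the difference -11.1 to -9.00).

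A nearby peak also went with composition. Members with another listed peak within 1000 bp had a median CpG ratio of 0.379 (0.363 to 0.402) and were CpG-rich in 20.6% of cases, while those without had 0.262 (0.242 to 0.286) and 11.4%. Members near an alternative start only had a median CpG ratio of 0.275 (0.258 to 0.300), and those near the 5′ end of their gene 0.371 (0.353 to 0.397). Repeats covered little of the class: the median soft-masked share was 7.02%, and 30 members (1.63%) were soft-masked, that is, marked as repeat in the assembly, over at least 0.8 of their bases. The share of such peaks was 6.69% among distal narrow ones and 0.135% among broad promoter peaks.

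Composition changed gradually with width rather than at the limit. The 71 members of 290 to 299 bp had a median GC content of 52.0% and a CpG ratio of 0.30, and 31.0% held a TSS. The 85 peaks of 300 to 309 bp, just outside the limit, had 54.0%, 0.36 and 27.1%. Single-strand promoter peaks were most frequent around 2 widths, with 782 peaks in the step from 150 to below 200 bp and 795 in that from 1050 to below 1100 bp. Between 300 and 700 bp each step of 50 bp held 383 to 436.

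**Figure D3:**
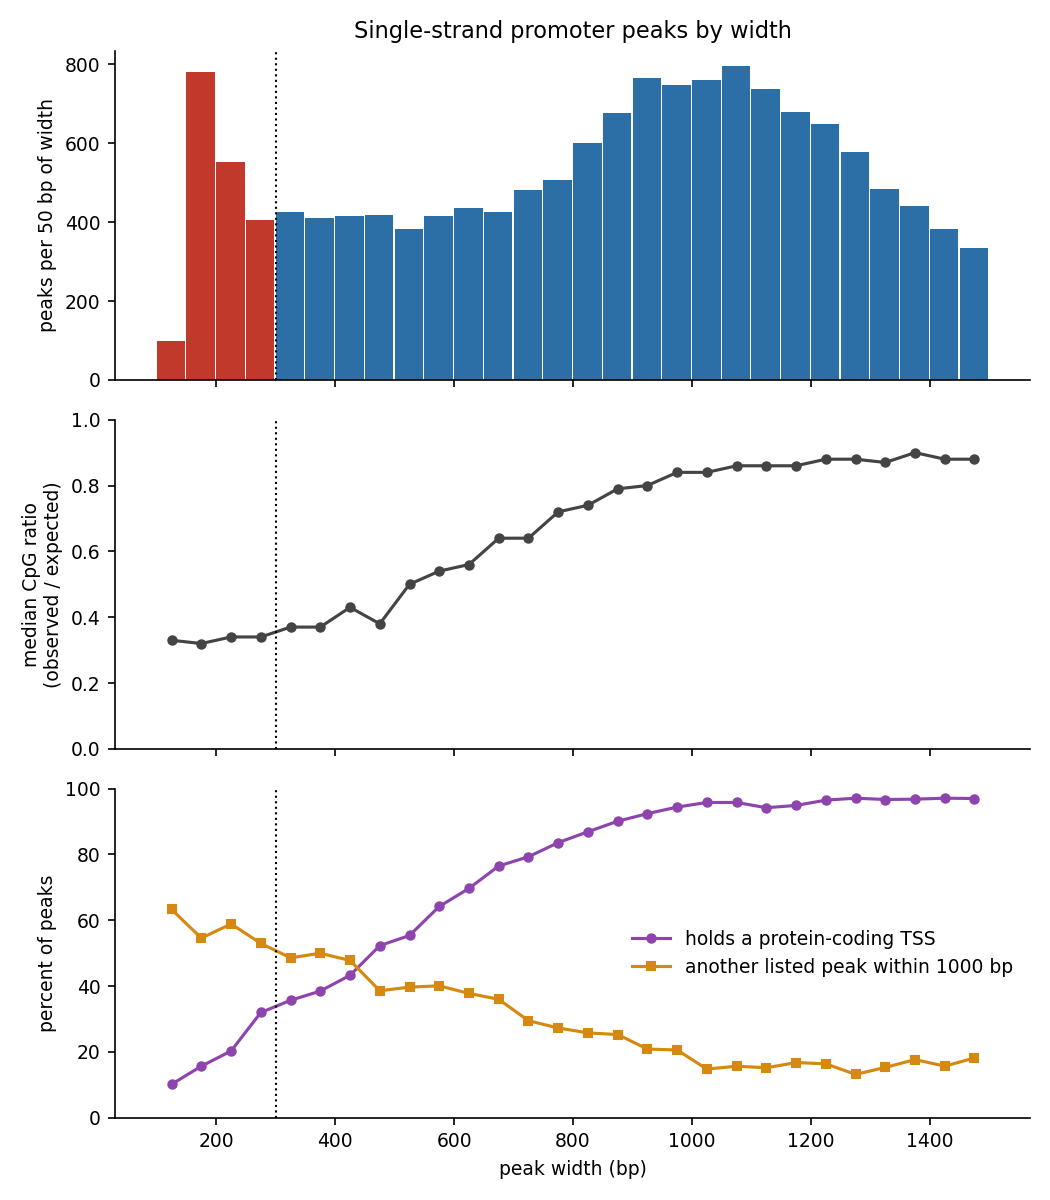
Single-strand promoter peaks in steps of 50 bp of width up to 1500 bp, with the number of peaks (top, narrow class in red), the median CpG ratio of the central 200 bp (middle) and the percent that held a protein-coding TSS or had another listed peak within 1000 bp (bottom). The dotted line is the limit of 300 bp, and the CpG ratio stays at 0.32 to 0.34 in the steps below it and reaches 0.84 at 1000 bp.

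To compare the motif content of these peaks with that of other classes, 13 short motifs were searched on both strands in the central 200 bp. They were spelled GGGGCGGGG for the GC box of SP factors, GGGTGTGGC for KLF, CCGGAAGT for ETS, CGCATGCG for NRF1, CCAATCA for NF-Y, AAGATGGCG for YY1, TGACGTCA for CRE, CACGTG for the E-box, ATGCAAAT for OCT, CCATTGT for SOX, TCAAGGTCA for ESRRB and GCCTNAGGC for AP-2, and the CTCF consensus was allowed 1 mismatch. No spelled motif contains another, and matches that share bases were each counted. At least 1 of the 13 was present in 370 members (20.1%). A match is a string of letters, not a shown binding site, and a peak without one may hold a more divergent site.

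Motifs typical of CpG island promoters were less frequent in narrow than in broad promoter peaks. The GC box was present in 60 (3.26%, 2.54 to 4.18), against 10.5% of broad and 12.0% of divergent peaks and 9.84% of all 17998 promoter peaks, and its difference from the broad class was -7.20 points (-8.07 to -6.16). It was more frequent than in distal narrow peaks (0.999%), by 2.27 points (1.54 to 3.19). ETS was found in 7 members (0.381%), in 2.97% of broad, 7.50% of divergent and 0.364% of distal narrow peaks. NRF1 was found in 5 (0.272%), with 1.29% of broad, 2.33% of divergent and 0.0778% of distal narrow peaks, and its difference from the last was 0.194 points (0.0341 to 0.558). YY1 occurred in 2 members (0.109%), compared with 1.61% of broad and 0.535% of distal narrow peaks. NF-Y, which binds the CCAAT box, was present in 44 (2.39%, 1.79 to 3.20) and in 4.10% of broad and 2.76% of distal narrow peaks. The E-box was present in 68 (3.70%) and in 5.25% of broad and 3.30% of distal narrow peaks. Each of these 6 motifs was less frequent in narrow than in broad peaks, and each interval of the difference excluded 0. The intervals were not widened for the number of motifs compared. The shares of all promoter peaks were 3.04% for ETS, 1.27% for NRF1, 1.52% for YY1, 4.15% for NF-Y and 5.12% for the E-box.

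Motifs of CTCF and of pluripotency factors showed the opposite order. The spellings of the GC box, ETS, NRF1, YY1, the E-box and CRE contain a CG. Those of KLF, OCT, SOX, ESRRB, NF-Y and AP-2 do not. The order did not follow this split throughout. NF-Y was less frequent in narrow than in broad peaks (2.39% against 4.10%), and the intervals of the difference for CRE and AP-2 included 0. Narrow peaks had a median CpG ratio of 0.333, against 0.784 in broad ones. No background of matched composition was used, so the part of base composition in these motif differences was not tested. CTCF, the insulator and loop-anchor protein, had a match in 80 members (4.35%, 3.51 to 5.38), in 2.39% of broad, 1.43% of divergent and 6.47% of distal narrow peaks, and in 2.52% of all promoter peaks. The difference between narrow and broad was 1.97 points (1.08 to 3.02). It was 1.28 points for peaks under 250 bp, 1.26 points with TSS at most 500 bp away and 0.724 points (0.151 to 1.48) in a window of 100 bp. SOX was matched in 53 (2.88%, 2.21 to 3.75) and in 1.51% of broad, 4.71% of distal narrow and 1.61% of all promoter peaks, KLF in 32 (1.74%) against 0.911% of broad and 0.995% of all promoter peaks, and ESRRB in 13 (0.707%) against 0.324% of broad and 0.356% of all promoter peaks. OCT was matched in 19 (1.03%, 0.663 to 1.61), in 0.573% of broad peaks and in 0.633% of all promoter peaks, a difference from the broad class of 0.460 points (0.0657 to 1.05). CRE was present in 12 members and AP-2 in 17, which is 0.653% and 0.925%. Their shares were 1.06% and 1.10% of broad peaks and 1.09% and 1.06% of all promoter peaks, with intervals of the difference that included 0 (-0.737 to 0.102 for CRE and -0.565 to 0.398 for AP-2). Each of the 5 motifs that were more frequent than in broad peaks had a higher share still in distal narrow peaks, although for KLF (1.90%) and OCT (1.26%) that share lay within the interval of the narrow promoter peaks.

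**Figure D4:**
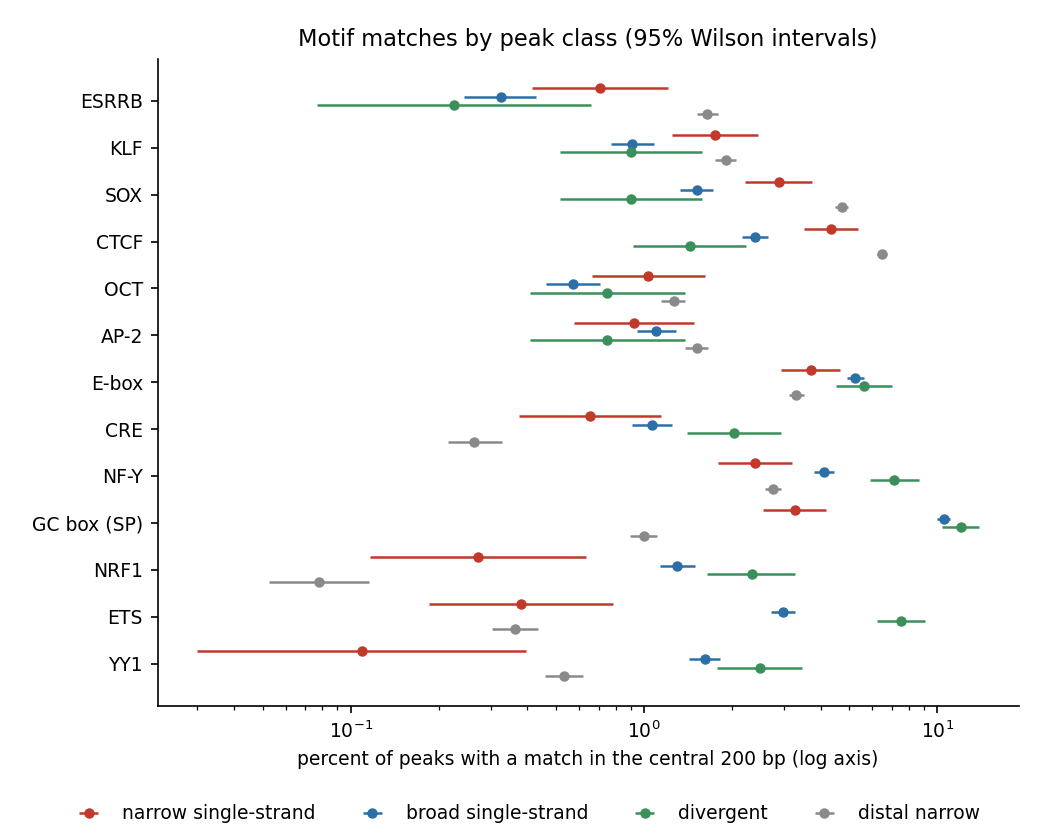
Percent of peaks with a motif match in the central 200 bp (log axis) in the 4 classes, as points with 95% Wilson intervals, ordered by the ratio of narrow to broad promoter peaks. CTCF (4.35%), SOX (2.88%), KLF (1.74%), OCT (1.03%) and ESRRB (0.707%) are higher in the narrow than in the broad class, and the GC box (3.26%), ETS (0.381%), NRF1 (0.272%) and YY1 (0.109%) are lower.

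Within the class, the GC box and NF-Y were more frequent where a TSS was held. The GC box was present in 26 of 375 TSS-holding members (6.93%, 4.78 to 9.96) and in 34 of the other 1463 (2.32%, 1.67 to 3.23). NF-Y was present in 20 of 375 (5.33%, 3.48 to 8.09) and in 1.64% of the rest (1.10 to 2.43). CTCF did not separate them, with 4.27% (2.64 to 6.82) and 4.37% (3.44 to 5.55). The TATA box was sought as TATAAA starting 22 to 35 bases upstream of a held TSS. It was found in 5 of 375 peaks (1.33%, 0.571 to 3.08), near the share of 1.07% of broad peaks that held a TSS. The share of all protein-coding TSS was 1.34%, counted per TSS rather than per peak and with or without a listed peak. These 5 were Tnf, the gene of an inflammatory cytokine, with TATAAA 32 bases upstream, Trim63, a muscle ubiquitin ligase gene (31), C2cd4a (30), 2210407C18Rik (27) and Mt4, a metallothionein gene (23). In 4 of the 5, all but C2cd4a, the peak was the sole promoter peak of its gene.

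To ask which genes have narrow promoter peaks, the members were assigned to every gene whose protein-coding TSS they reached. They reached 1651 of 21888 genes (7.54%), which was 10.9% of the 15168 genes with a promoter peak of any of the 3 classes. For 444 genes, all promoter peaks were narrow, which was 2.93% of the 15168. A single narrow peak was found at 1480 genes, 2 at 146 and 3 or more at 25. Ank3, an ankyrin gene with 24 protein-coding TSS, and Fam208b, with 3 TSS, each had 4 narrow peaks beside other promoter peaks. Prl2c3, a prolactin family gene, had 4 narrow peaks and no other. Cyp2ab1, Ffar3 (a fatty acid receptor gene), Il23a (a cytokine subunit gene), Rimbp2 and Zfp618 each had 3 and no other promoter peak. Soft-masked bases covered up to 67.3% of a peak at Prl2c3 and 92.4% at Rimbp2, and members of multigene families such as Prl2c3 can share reads with near-identical copies.

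Genes with narrow peaks alone differed from other genes at their 5′ end, read from 250 bp before to 50 bp after the annotated start. The median CpG ratio there was 0.265 for the 444 genes, 0.671 for genes with narrow and other promoter peaks, 0.728 for genes with other classes only and 0.153 for genes without a listed promoter peak. The 444 were -0.463 (-0.491 to -0.438) from the genes with other classes only and 0.112 (0.0845 to 0.137) from those without a peak. CpG-rich starts made up 9.46%, 54.2%, 62.2% and 1.28% of the 4 groups in the same order. More than 1 protein-coding TSS was annotated for 84.8% of genes with narrow and other peaks, 67.5% of genes with other classes only and 57.9% of genes with narrow peaks alone. A gene with more TSS offers more chances for a peak to lie near one, and this was not corrected for. The narrow peaks of genes with and without another class were also compared. Of 488 members at genes with narrow peaks alone, 34.4% held a TSS and 19.7% had a neighbour within 1000 bp, and of 1350 at genes with another class of promoter peak, 15.3% and 69.1%. Their median CpG ratios were 0.326 and 0.336, a difference of -0.00985 with an interval of -0.0455 to 0.0254, and their median GC contents 54.5% and 52.5%, a difference of 2.00 points (0.882 to 3.12).

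By gene family, shares are of the genes with a promoter peak, and 2.93% of all such genes had narrow ones alone. Chemosensory receptor genes had the highest shares among families with over 10 such genes. Of 35 olfactory receptor genes with a promoter peak, 18 had narrow ones only (51.4%, 35.6 to 67.0), and of 11 vomeronasal receptor genes, 6 (54.5%, 28.0 to 78.7). These are small parts of families of 1144 and 329 genes, most of which had no promoter peak in the list. Over all genes with or without a promoter peak, the order was reversed. A narrow peak was present at 1.84% of olfactory and 1.82% of vomeronasal receptor genes, against 7.54% of all genes. The 27 narrow peaks at both families had a median GC content of 43.5% and a median CpG ratio of 0.08, 12 had no CG dinucleotide in the central 200 bp, and 4 held a TSS. Soft-masked bases made up at least 0.8 of 3 of them, and reads may be shared between near-identical receptor genes. Narrow peaks alone were also found at 3 of 4 defensin genes (antimicrobial peptides), 6 of 28 cytochrome P450 genes (21.4%, 10.2 to 39.5), 7 of 38 clustered protocadherin genes (18.4%, 9.22 to 33.4), 2 of 11 keratin genes and 4 of 36 interleukin and interleukin receptor genes (11.1%, 4.41 to 25.3).

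In the ribosomal protein and proteasome families, narrow promoter peaks alone were not found. No gene of the cytoplasmic ribosomal proteins (0 of 89, Wilson upper limit 4.14%), the mitochondrial ribosomal proteins (0 of 78, upper limit 4.69%) or the proteasome (0 of 49, upper limit 7.27%) had them, and each limit included 2.93%. Narrow peaks beside other classes were present at 4, 1 and 2 of these genes (4.49%, 1.28% and 4.08%), against 10.9% of all genes with a promoter peak. For the other families the shares lay on both sides of 2.93%. Of the zinc finger genes named Zfp, 5 of 363 had narrow peaks alone (1.38%, 0.590 to 3.18), and of the solute carrier genes 10 of 299 (3.34%, 1.83 to 6.05). The Hox genes had 3 of 38 (7.89%), histone genes 2 of 62, collagen genes 2 of 33, chemokine ligand genes 1 of 12, Gpr receptor genes 1 of 44 and potassium channel genes 1 of 74, and the intervals of these 6 families included 2.93%.

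**Figure D5:**
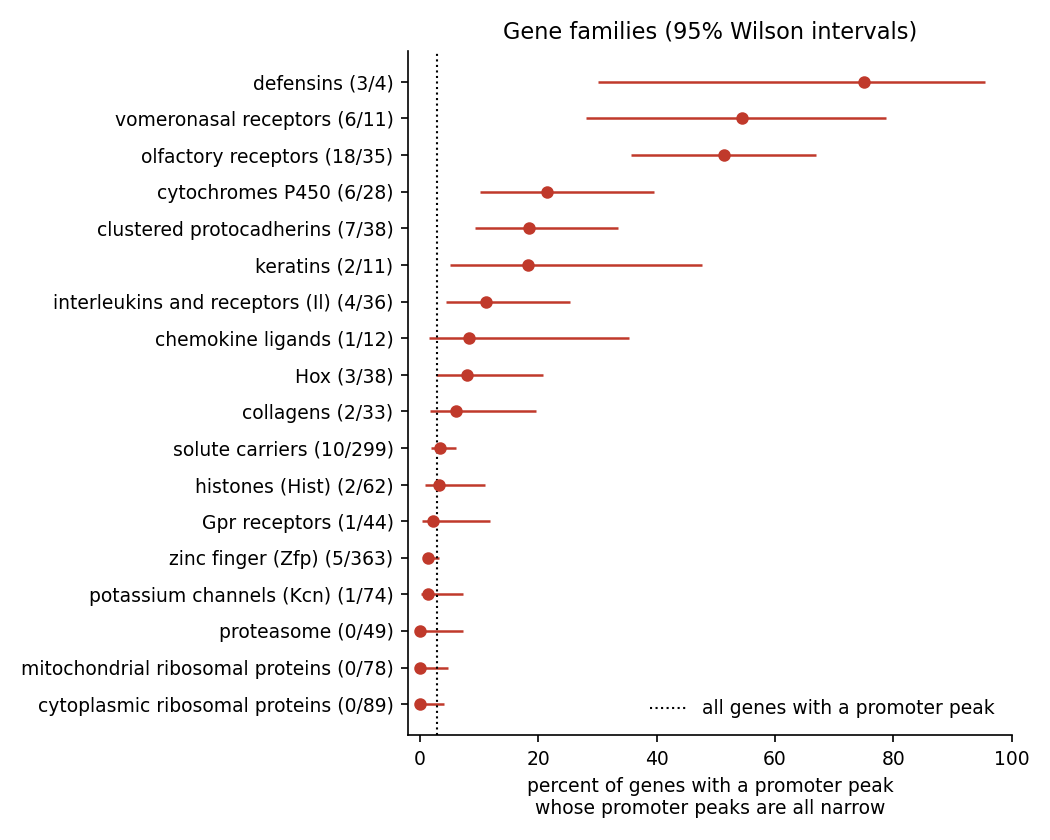
Percent of genes with a promoter peak whose promoter peaks are all narrow, by gene family, as points with 95% Wilson intervals, with the counts in brackets. The dotted line is the value of 2.93% for all genes with a promoter peak, and olfactory receptors (51.4%), vomeronasal receptors (54.5%) and defensins (3 of 4) lie farthest to its right.

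In the lists of marker genes, narrow peaks were set against all 1651 genes with one, of which 1207 (73.1%) also had another class of promoter peak and 26.9% did not. Of 25 pluripotency genes with a promoter peak, 4 had a narrow one (against 10.9% of all genes with a promoter peak) and 0 had narrow ones alone. These were Esrrb, Klf2, Sall4 (a zinc finger factor) and Nodal (a signalling ligand). The Sall4 peak was in a coding exon 193 bp downstream of an alternative TSS, with a CpG ratio of 0.46, and the Nodal peak lay 34 bp upstream of the TSS with a ratio of 0.13 and a neighbour 255 bp away. The Klf2 peak had a neighbour at 74 bp and a ratio of 1.00.

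All 28 lineage genes had a promoter peak and 5 had a narrow one (17.9%, against 10.9% of all genes with a promoter peak). Hnf4a had a narrow peak alone, 43 bp upstream of a TSS, with a CpG ratio of 0.08 in the 200 bp window, which takes in bases beside the peak. The other 4 genes also had another class of promoter peak. Olig2, a neural factor gene, had 1 downstream of its TSS with a ratio of 1.17, and Elf5, a trophoblast factor gene, had 1 at 239 bp downstream with a ratio of 0.05. Hand1, a mesoderm and trophoblast factor gene, had 2 that each held a TSS, 423 bp or less from another peak. Tfap2a, the gene of an AP-2 factor, had 3, all downstream of alternative TSS, with ratios of 0.82, 0.69 and 0.73.

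In the immune response and germline lists, the few genes with a narrow peak had no other class. Of 8 immune response genes with a promoter peak, 3 had narrow peaks and these were their only ones (37.5%, 13.7 to 69.4, against 2.93% of all genes with a promoter peak): Tnf, Cxcl10 (an interferon-induced chemokine) and Mx1 (an antiviral GTPase). The Tnf and Cxcl10 peaks held a TSS, with CpG ratios of 0.39 and 0.56, and the Mx1 peak lay 119 bp upstream with 0.14. The nearest other peaks were 2726, 9043 and 5213 bp away. Of 17 germline genes with a promoter peak, 2 had narrow peaks (11.8%, against 10.9% of all genes), Stra8 and Tex101, again alone and with a TSS inside, with ratios of 0.34 and 0.66. Among 14 early response genes with a promoter peak, Ier2 had 2 narrow peaks and Egr2 1, each within 100 bp of another peak, with ratios of 0.73, 0.92 and 0.85. These 2 genes made up 14.3% of the 14, against 10.9% of all genes with a promoter peak. None of 18 housekeeping genes (upper limit 17.6%) and none of the 6 adult tissue genes with a promoter peak (upper limit 39.0%) had a narrow one. Both limits included the share of 10.9% of all genes with a promoter peak.

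Along the genome, the narrow share of single-strand promoter peaks ran from 8.67% (6.96 to 10.7) on chromosome 8 to 14.1% (11.8 to 16.7) on chromosome 17, around 11.0% overall. On X, 47 of 492 were narrow (9.55%, 7.26 to 12.5). The only single-strand promoter peak on Y was not narrow.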

How the data were processed

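ATAC-seq was measured in 20 libraries of ZHBTc4 mouse ES cells. The authors aligned reads to GRCm38 (mm10) with STAR 2.6.1c, removed duplicates with Picard, kept chromosomes 1 to 19, X and Y, used MACS2 2.1.1.20160309 on read pairs to call peaks, and joined those of the 16 dox-treated libraries by BEDTools. This deposited list holds 3 columns of coordinates and no counts or scores. Whether blacklisted regions and peaks of input samples had been taken out of this list was not tested.

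TSS were the 54363 distinct starts of protein-coding transcripts in GENCODE M21 (GRCm38). Distance is from the peak edge. GC content, CpG ratio and motifs were read from the GRCm38.p6 sequence in the central 200 bp. Coordinates count from 1. A peak reaching several genes (10 members) counted for each.

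The class, the gene lists and the families were chosen with earlier results of these data known. Named regions are list genes, the 5 narrowest, the 5 highest and 5 lowest in GC, genes with 3 or more members and members with a TATA box. The exact symbol patterns of the families (keratins without keratin-associated proteins, for example), the centre within 100 bp, the 5′ ends of genes and the subgroups by TSS, neighbour and gene were added after values were seen. No test of significance was run, since 1 list has no replicates. Alternatives changed the width limit (250 or 400 bp), the distance (500 bp), the transcripts (basic only), the joining of peaks up to 100 bp apart, repeats and the window (100 bp). The functions were tested on simulated data. Figures were drawn with matplotlib 3.10.9, and values were computed with scipy 1.17.1, pandas 2.3.3 and numpy 2.4.6 in Python 3.11.15.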

Additional observations from a re-analysis of the deposited data

How the results depend on the processing

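Across 7 results there were 45 alternative values. Of these, 32 lay within the interval of the main value or, for the number of members, within 1.5 times of it, and 13 moved further. Only the results that are differences between narrow and broad peaks could change direction, and 0 of their alternatives did. The number of members and the shares could not change direction. The number of members ran from 1104 to 2674. With TSS at most 500 bp away, the class held 1104 peaks, of which 34.4% held a TSS and 32.7% were the sole promoter peak of their genes; the difference from broad peaks was 26.7 points for a neighbour within 1000 bp and -11.5 points for GC content. The share that held a TSS was 17.1% under a limit of 250 bp, 25.6% under 400 bp and 22.4% with peaks up to 100 bp apart joined. Joining also gave 25.2% sole peaks and a neighbour difference of 26.5 points, and transcripts tagged basic gave 27.2% and 37.6 points. The difference in CTCF matches fell from 1.97 to 0.724 points in a window of 100 bp. Lower limits of distance and joining remove peaks by construction, and for the other shifts the cause was not tested. No paired analysis was possible because replicates have no values of their own here. Depth is unknown, so narrow peaks that fewer reads would miss cannot be counted.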
